A study of Rattus norvegicus with 6 samples.

Results

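Corticosteroid action in the aorta was followed through 9 genes: the receptors Nr3c1 and Nr3c2, the enzymes Hsd11b1 and Hsd11b2, and the target genes Sgk1, Tsc22d3, Cebpd, Cebpb and Dusp1. All probe sets of the chip whose single gene symbol in the platform annotation was one of these were taken, each kept apart. They were 16 of 8799 probe sets and covered 8 of the 9 genes. Tsc22d3, a leucine zipper protein induced by glucocorticoids, was the symbol of 0 probe sets and was not analysed here.

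The arrays compared aortae of spontaneously hypertensive rats (SHR), an inbred strain with high blood pressure. Runners had 5 weeks of voluntary exercise in a cage with a wheel, and non-runners were aortae from SHR that did not run. There were 3 arrays a group, lettered A, B and C as the chips were, and each array carried RNA of 3 pooled aortae. Age, sex and the division of animals among pools are not given in the sources used here, so a p-value here reflects how far pools differ, part of which may be technical.

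Glucocorticoids and mineralocorticoids cross the cell membrane and bind receptors held ready by Hsp90 chaperones, and the bound receptor enters the nucleus and switches genes on or off. Both receptor types are found in vascular smooth muscle and endothelium. Within the cell, Hsd11b1 regenerates active corticosterone from its inert 11-keto form. Hsd11b2 does the reverse and so keeps corticosterone from the mineralocorticoid receptor.

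No member passed the comparison of runners with non-runners. The intensities were compared as quantile-normalized log2 values, and 14 of the 16 probe sets, covering 7 genes, passed a filter that left out the dimmest 40% of the chip by mean over all 6 arrays. By limma with Benjamini-Hochberg adjustment, 0 of the 14 had an adjusted p under 0.05, and their adjusted p ran from 0.516 to 0.979. Over all 5244 probe sets tested the called share was likewise 0%, with 423 below an unadjusted p of 0.05. Of the 14, 1 was below that p, against 8.07% of all probe sets tested. In that same probe set, for Cebpd, the groups did not overlap and runners were lower. Groups did not overlap for 14.9% of all probe sets tested, and for 7.49% with runners lower. The 14 split evenly, 7 higher and 7 lower in runners, where 49.2% of all probe sets tested were higher, and their median log2 difference was 0.05, against -0.01 over all probe sets tested. The median size of the difference, whatever its sign, was 0.23 for the members and 0.17 for all probe sets.

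**Figure D1:**
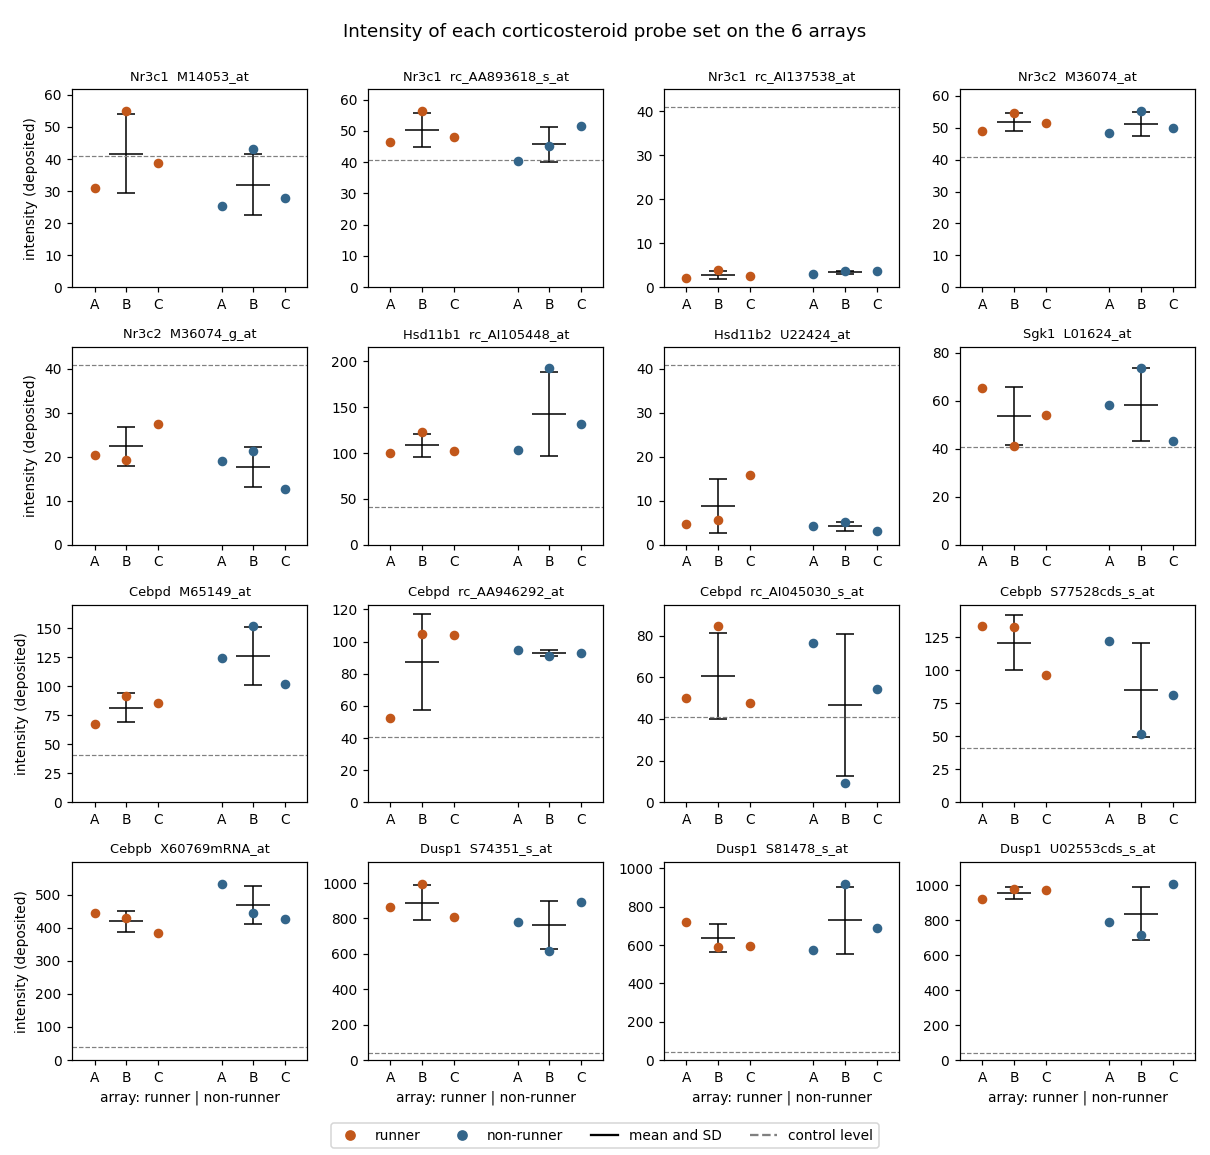
Deposited intensity of each of the 16 member probe sets on the 3 runner arrays (left in each panel) and the 3 non-runner arrays (right), with the group mean and SD (n = 3); the dashed line is the control level of 40.8. The groups separate for the Cebpd probe set M65149_at, where runners lie at 68.0 to 91.4 and non-runners at 102.3 to 152.1, and 3 probe sets lie below the line on all arrays.

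The control level of 40.8 comes from 19 probe sets that target yeast genes or the sense strand, as the 95th percentile of their values. It was used because the table has no detection calls. A probe set below it on all arrays is given by its values only, with no fold. That was so for 3 member probe sets: 1 of Nr3c1, 1 of Nr3c2 and the single probe set of Hsd11b2. The aorta was recognisable in the same values. Of the smooth muscle markers Acta2, Myh11, Tagln, Cnn1 and Des, 0 lay below the control level on all arrays. Of 6 endothelial markers, Icam2, Kdr and Vwf lay below it on all arrays, and Pecam1, Nos3 and Flt1 did not. The 4 adrenal cortex markers with a probe set, Cyp11a1, Cyp11b2, Cyp21a1 and Star, which serve corticosteroid synthesis, were all below it on all 6 arrays.

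Non-runner B stood apart. The 3'/5' intensity ratio of the beta-actin control, which grows where the 5' end of the transcript gives less signal, was 1.22 to 1.43 on the runner arrays, 2.14 on non-runner B, and 1.28 and 1.67 on non-runners A and C. That array was the highest or the lowest of the 6 for 58.3% of all probe sets tested, and for 64.3% of the members: it was the highest for 5 and the lowest for 4. Member results are therefore given with and without it.

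**Figure D2:**
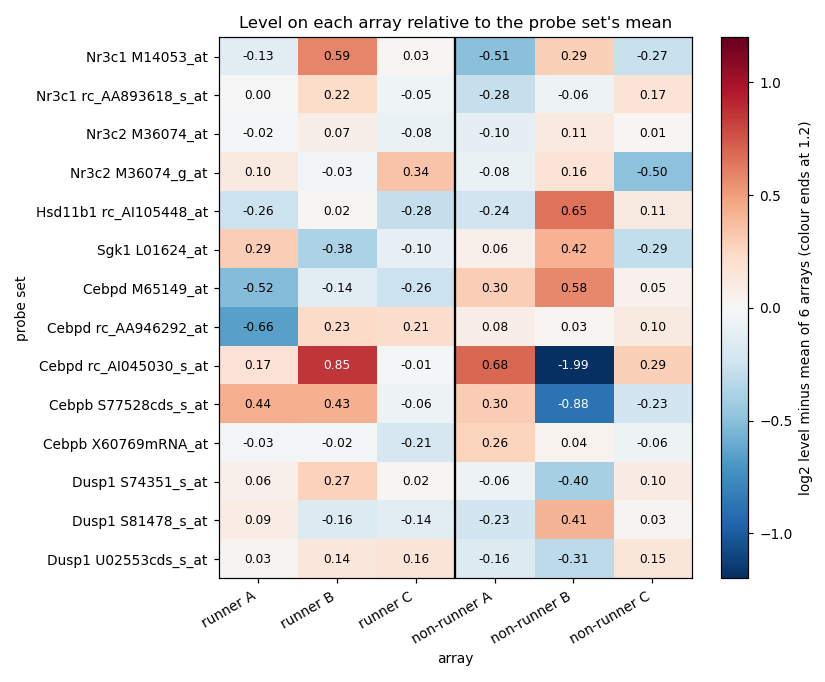
Normalized log2 level of each of the 14 tested member probe sets (rows) on each array (columns), minus its mean over the 6 arrays; red is above and blue below that mean. The column of non-runner B runs from -1.99 for a Cebpd probe set to 0.65 for Hsd11b1.

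The glucocorticoid receptor gene Nr3c1 was measured near the control level and did not pass the test. Its probe set rc_AA893618_s_at had intensities of 46.4, 56.5 and 48.2 in runners A, B and C, against 40.3, 45.3 and 51.5 in non-runners A, B and C. The groups overlapped, and only non-runner A lay below the control level. The log2 difference, runner minus non-runner, was 0.11 ± 0.17 (SE; 95% interval -0.28 to 0.51; limma adjusted p = 0.874).

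A second Nr3c1 probe set, M14053_at, measured 31.1, 55.1 and 38.8 in runners against 25.3, 43.0 and 27.8 in non-runners, above the control level only on array B of each group. Its log2 difference was 0.32 ± 0.26 (SE; 95% interval -0.28 to 0.93; limma adjusted p = 0.764). It was 0.54 without non-runner B (unadjusted p = 0.0543) and 0.73 with the beta-actin ratio as a covariate (limma unadjusted p = 0.0157, adjusted p = 0.700), a covariate chosen after seeing the data. The third probe set, rc_AI137538_at, had values of 2.0 to 3.8 in runners and 3.0 to 3.6 in non-runners and was too dim to test.

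The mineralocorticoid receptor gene Nr3c2 varied little among the 6 arrays on its brighter probe set, whose values lay near the control level. Its probe set M36074_at measured 49.0, 54.7 and 51.5 in runners against 48.5, 55.4 and 49.8 in non-runners, above the control level on all arrays. The ranges of the groups were almost the same. The log2 difference was -0.02 ± 0.14 (SE), with a 95% interval of -0.35 to 0.32 (limma adjusted p = 0.979). Its SD over the 6 arrays was 0.08 on the log2 scale, and only 2.63% of tested probe sets had as small an SD. The other Nr3c2 probe set, M36074_g_at, lay below the control level on all arrays, with 20.4, 19.3 and 27.4 in runners and 19.0, 21.4 and 12.7 in non-runners. This dimmer probe set varied more, with an SD of 0.28 on the log2 scale, and 62.7% of tested probe sets had as small an SD.

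Of the enzymes that set the local level of corticosterone, only the activating one was detected above the control level. Hsd11b1 measured 99.6, 123.0 and 102.3 in runners against 103.7, 192.3 and 131.4 in non-runners. The runner mean was 108 ± 12.8 and the non-runner mean 142 ± 45.3 (intensity, SD, n = 3), and the groups overlapped. The log2 difference was -0.34 ± 0.24 (SE; 95% interval -0.89 to 0.20; limma adjusted p = 0.738).

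That difference rested largely on non-runner B. Without this array it was -0.11 (limma unadjusted p = 0.559), and with the beta-actin ratio as a covariate 0.066 (unadjusted p = 0.701). Without non-runner A, which had the lowest value of its group, it was -0.55 (unadjusted p = 0.0414, limma adjusted p = 0.473). The arrays with the highest Hsd11b1, non-runners B and C, were also those with the highest beta-actin ratios, 2.14 and 1.67. Hsd11b1 is known to be expressed in fat cells as well as in the vessel wall. The summed intensity of 6 adipocyte markers was 2489 to 2726 in runners and 1916 to 2592 in non-runners, and it was lowest on non-runner B, where Hsd11b1 was highest. Plin1 was the only one of those markers below the control level on all arrays. The summed intensity of 6 fibroblast markers was 12867, 13628 and 12981 in runners A, B and C. In non-runners A, B and C it was 12823, 14614 and 13476, highest on non-runner B. Of these markers Dcn, Col1a2 and Pdgfra were at their highest on non-runner B, like Hsd11b1. Col1a1 (2751.0) was at its lowest there, and Col3a1 and Lum lay between. Leukocyte and nerve marker sums were also highest on that array, and endothelial and brown adipocyte sums lowest. Markers within these lists did not all go the same way. On non-runner B, Cd74 (534.4) and Pmp22 (1170.0) were at their highest, but Cd14 (64.0), Ptprc (31.7) and Mbp (12.7) at their lowest. Pecam1 (79.2) was at its lowest there, while Nos3 (69.1) and Flt1 (59.6) lay within the range of the other arrays. The part of any cell type in the Hsd11b1 values was not tested. In such whole tissue, fewer cells of a type and less RNA per cell cannot be told apart.

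Hsd11b2, the inactivating enzyme, had values of 4.7, 5.7 and 15.8 in runners and 4.2, 5.1 and 3.2 in non-runners. All lay below the control level and the probe set was too dim to test. Runner C was the highest, at a level where neither group is established as signal.

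Sgk1, a kinase that holds sodium channels at the cell surface and is induced by both hormone classes, overlapped fully between the groups. It measured 65.3, 41.2 and 53.9 in runners against 58.3, 73.5 and 43.2 in non-runners. The log2 difference was -0.13 ± 0.24 (SE; 95% interval -0.68 to 0.43; limma adjusted p = 0.903). Its sign turned without non-runner B (0.053) and without runner B (0.033).

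Cebpd, a C/EBP transcription factor that glucocorticoids and inflammatory signals induce early, held the one separation of the groups among the members. Probe set M65149_at measured 68.0, 91.4 and 86.0 in runners against 124.7, 152.1 and 102.3 in non-runners, so that every runner array was below every non-runner array. The mean was 81.8 ± 12.3 in runners and 126 ± 24.9 in non-runners (intensity, SD, n = 3).

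The log2 difference of this Cebpd probe set was -0.61 ± 0.19 (SE; 95% interval -1.05 to -0.18), a fold of 0.65. Its unadjusted p was 0.0118, and the adjusted p of 0.516 from limma did not pass. For 3.83% of all probe sets tested the unadjusted p was under 0.05 with runners higher, and for 4.23% with runners lower. The difference stayed negative as each array was left out, from -0.74 to -0.48, and was -0.48 without non-runner B (unadjusted p = 0.0266). With the beta-actin ratio as a covariate it was also -0.48, with an unadjusted p of 0.0706.

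The other Cebpd probe sets did not show that separation. Probe set rc_AA946292_at measured 52.6, 104.5 and 104.3 in runners against 94.5, 91.0 and 93.0 in non-runners. Runner A alone was low there, and the difference was -0.14 ± 0.25 (log2, SE), or 0.15 without runner A. Probe set rc_AI045030_s_at measured 50.0, 84.6 and 47.6 in runners against 76.3, 9.2 and 54.5 in non-runners. Non-runner B, the highest array for M65149_at, was the lowest for this probe set. Its difference was 0.68 ± 0.63 (SE) and turned to -0.15 without that array. Across the 3 probe sets of Cebpd the sign was therefore negative in 2 and positive in 1 with all arrays, and negative in all 3 without non-runner B.

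Cebpb, a related C/EBP factor of inflammation and fat cell formation, also gave opposite signs. Probe set X60769mRNA_at measured 444.2, 428.9 and 383.8 in runners against 533.0, 443.3 and 427.4 in non-runners. The groups overlapped narrowly, with a log2 difference of -0.17 ± 0.16 (SE; 95% interval -0.52 to 0.19; limma adjusted p = 0.792). Probe set S77528cds_s_at measured 133.4, 132.3 and 96.7 in runners against 122.4, 51.6 and 81.2 in non-runners, with the lowest value on non-runner B. Its difference was 0.54 ± 0.30 (log2, SE; 95% interval -0.15 to 1.23; limma adjusted p = 0.681). It was 0.23 without non-runner B and 0.83 without non-runner A (unadjusted p = 0.0167, limma adjusted p = 0.421).

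Dusp1, a phosphatase that switches off MAP kinases and is induced by glucocorticoids and by stress, lay far above the control level on all arrays in all of its 3 probe sets. Probe set U02553cds_s_at measured 917.9, 978.4 and 971.6 in runners against 788.5, 713.8 and 1008.2 in non-runners, and S74351_s_at measured 863.1, 996.7 and 805.7 against 780.0, 618.3 and 891.6. In both, non-runner B was the lowest array and the groups overlapped. Their log2 differences were 0.22 ± 0.17 and 0.23 ± 0.18 (SE), both with limma adjusted p = 0.753, and were 0.11 and 0.093 without non-runner B.

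The third Dusp1 probe set went the other way. S81478_s_at measured 722.3, 591.5 and 595.8 in runners against 574.4, 920.1 and 690.6 in non-runners, with non-runner B the highest. Its difference was -0.14 ± 0.19 (log2, SE; 95% interval -0.59 to 0.31; limma adjusted p = 0.860) and 0.028 without non-runner B.

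**Figure D3:**
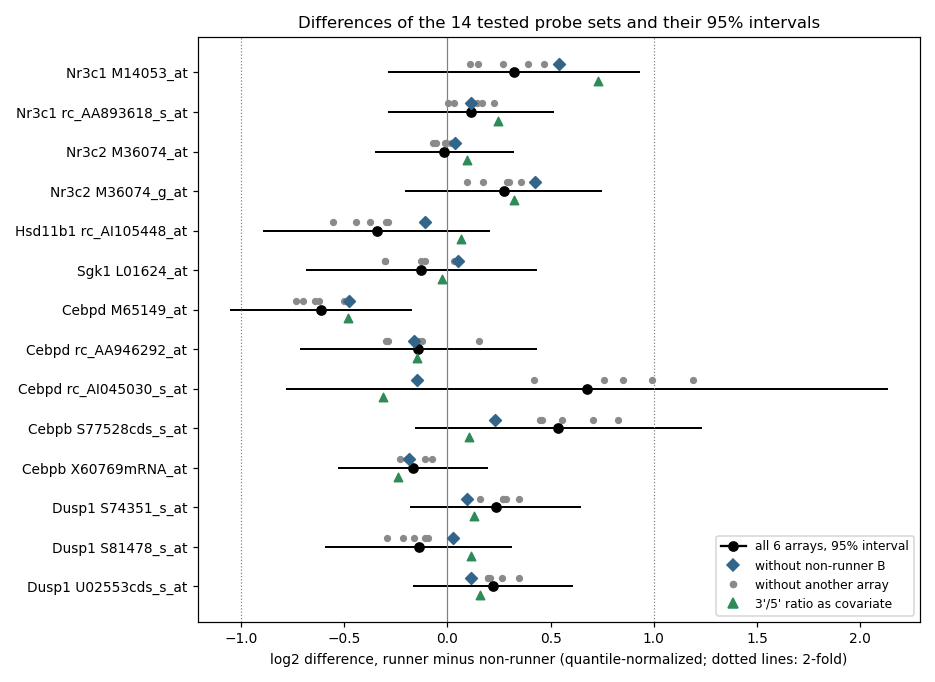
Log2 difference, runner minus non-runner, of each of the 14 tested member probe sets (black points) with its 95% interval from limma; grey points leave out 1 other array, blue diamonds leave out non-runner B, and green triangles add the 3'/5' ratio of beta-actin as a covariate. The interval of 1 probe set, Cebpd M65149_at, lies wholly to the left of 0, and most intervals lie within the dotted lines at a 2-fold difference.

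These intervals show what the arrays could and could not resolve. Of the 13 tested probe sets that reached the control level on at least 1 array, 10 had a 95% interval wholly inside a 2-fold change in either direction. The exceptions were Cebpd M65149_at, Cebpd rc_AI045030_s_at and Cebpb S77528cds_s_at. Over all probe sets tested, with those below the control level included, 86.0% had such an interval. Counted in that way, so did 11 of the 14 tested member probe sets. Fold changes of dim genes are understated. For Nr3c1, Nr3c2 M36074_at and Sgk1, near the control level, an interval inside a 2-fold change therefore does not exclude a 2-fold change in transcript.

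The start of Dusp1 is shown because, of 10 start-site windows of the members in RefSeq (build GRCr8), it was the one that held a searched motif. The windows run from 250 bases before to 50 bases after a start and belong to Nr3c1 (2), Sgk1 (3), Tsc22d3 (3), Cebpb (1) and Dusp1 (1). Nr3c2, Hsd11b1, Hsd11b2 and Cebpd had no window and were not searched. Both strands were searched for the glucocorticoid response element palindrome (its half-site, a spacer of 3 bases of any kind and the half-site reversed), the half-site AGAACA alone, which each palindrome holds, and the cAMP response element TGACGTCA. The glucocorticoid motifs were in 0 of the 10 windows, against 0.0149% of all 33469 RefSeq windows for the palindrome and 20.7% for the half-site. A palindrome that rare would hardly be met in 10 windows, so its absence says little about the members. The cAMP response element was in the Dusp1 window alone, against 1.83% of all windows. A match is letters in a window and not a site shown to be bound. The window lies at chr10:17184603-17184902 on the plus strand, 5' to 3', with the cAMP response element in capitals, its first base 124 bases before the start.
Dusp1: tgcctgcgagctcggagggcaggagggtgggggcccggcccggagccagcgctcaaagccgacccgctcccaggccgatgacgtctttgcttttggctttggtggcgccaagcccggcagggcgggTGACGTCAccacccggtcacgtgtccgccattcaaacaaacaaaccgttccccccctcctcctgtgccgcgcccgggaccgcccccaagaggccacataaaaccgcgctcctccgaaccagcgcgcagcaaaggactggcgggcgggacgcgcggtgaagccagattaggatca

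Genes that work with the receptors were measured on the same arrays. Of 10 tested receptor chaperones, cochaperones and coregulators, 8 were lower and 2 higher in runners on their brightest probe set, where 46.1% of all genes tested were higher, and 0 passed at an adjusted p. At an unadjusted p under 0.05, 4 were lower and 0 higher, where these shares were 4.48% and 2.93% over all genes tested. The list median was -0.36 against -0.02 over all 3173 genes. Without non-runner B all 10 were lower, where 50.6% of all genes were, and the median was -0.36. The list was chosen with earlier results of these data known, so these counts describe it and are no test of it.

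The members of that list with the smallest p were Dnaja1, Dnajb1, Hsp90ab1 and Nr2f1. Hsp90ab1, the constitutive Hsp90 that holds the unbound receptor, measured 1745, 1903 and 1994 in runners against 2133, 3039 and 2738 in non-runners. Every runner array was below every non-runner array, with a log2 difference of -0.47 ± 0.17 (SE; limma adjusted p = 0.586) and of -0.36 without non-runner B. The other tested Hsp90ab1 probe sets differed by -0.58, -0.50 and -0.56. The Hsp40 cochaperones Dnaja1 and Dnajb1 differed by -0.68 ± 0.15 and -1.00 ± 0.25 (SE; limma adjusted p = 0.294 and 0.376). Nr2f1, an orphan nuclear receptor, lay below the control level on all arrays.

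Of 19 tested genes known to be induced by glucocorticoids in some tissue, beside the members, 8 were higher and 11 lower in runners, and 0 passed. An unadjusted p under 0.05 was reached by 0 of the higher and 2 of the lower genes, and the list median was -0.04. Many of these genes are known as targets from liver or adipose tissue, and the direction of a response can differ between tissues. Whether glucocorticoids induce them in the aorta or in the fat around it was not tested. Pck1, which makes phosphoenolpyruvate in liver and fat, measured 216.8, 303.6 and 246.7 in runners against 699.7, 246.0 and 776.6 in non-runners. Non-runners A and C were high, and non-runner B lay within the runner range.

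The log2 difference of Pck1 was -1.00 ± 0.40 (SE; unadjusted p = 0.0367, limma adjusted p = 0.587), and -1.52 without non-runner B. The brown adipocyte markers, of which 5 had a probe set, showed a like order among non-runners: their summed intensity was 2041, 2531 and 1519 in runners A, B and C, against 2616, 1368 and 2657 in non-runners A, B and C. That order was not particular to brown adipocyte markers. The sum of the white and general adipocyte markers was 2561, 1916 and 2592 in non-runners A, B and C, and the smooth muscle sum had the same order. The part of fat around the vessel in the Pck1 values was not tested. Dio2 was the only brown adipocyte marker below the control level on all arrays.

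The same list held Lpl, Glul and Klf9. Klf9, a zinc finger factor induced by corticosteroids, measured 730.1, 741.8 and 792.6 in runners against 841.4, 922.0 and 909.5 in non-runners, with no overlap. Its difference was -0.24 ± 0.14 (log2, SE; limma adjusted p = 0.701), and its other probe set differed by -0.10. Glul, glutamine synthetase, measured 367.6, 378.2 and 616.4 in runners against 631.3, 592.4 and 624.8 in non-runners, where runner C lay with the non-runners. Its 4 probe sets differed by -0.45, 0.00, -0.34 and -0.09. Lpl, lipoprotein lipase, differed by -0.38 ± 0.15 (SE; limma adjusted p = 0.586) and by -0.37 and -0.42 in its other probe sets.

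Of 8 tested genes that glucocorticoids repress, 3 were higher and 5 lower, with 0 higher and 1 lower at an unadjusted p under 0.05 and a median of -0.24. The lower one, Pomc, the precursor of corticotropin, lay below the control level on all arrays, as did Il1b. Ccl2, a monocyte chemokine, measured 81.1, 85.8 and 87.6 in runners against 51.9, 91.3 and 51.6 in non-runners. Non-runner B alone was as high as the runners, and the difference was 0.42 ± 0.22 (log2, SE; limma adjusted p = 0.658), or 0.67 without that array (unadjusted p = 0.0013). Vcam1, a leukocyte adhesion molecule, differed by 0.34 ± 0.22 (SE) and by 0.10 without non-runner B. The list without non-runner B had 3 higher and 5 lower, with a median of -0.07. At an unadjusted p under 0.05 it then had 1 higher and 0 lower, so the list median and the call depended on that array.

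Mineralocorticoid-regulated and sodium transport genes had 7 higher and 5 lower of 12 tested, with 1 higher and 0 lower at an unadjusted p under 0.05 and a median of 0.06. The higher one, Egfr, lay below the control level on all arrays, as did Scnn1a, a subunit of the epithelial sodium channel. Nedd4, a ubiquitin ligase related to the one that removes that channel, measured 230.6, 196.2 and 231.0 in runners against 128.4, 129.8 and 230.5 in non-runners. Non-runner C lay with the runners, and the difference was 0.48 ± 0.24 (log2, SE; limma adjusted p = 0.649). Spp1, osteopontin, measured 1415, 1545 and 1268 in runners against 1255, 1249 and 1216 in non-runners, without overlap, and differed by 0.20 ± 0.14 (log2, SE; limma adjusted p = 0.751).

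Of steroid synthesis, transport and other steroid-metabolising genes only 6 of the 15 with a probe set passed the filter, 3 higher and 3 lower, with 0 at an unadjusted p under 0.05 and a median of 0.05. The smallest p in that list was 0.151, for the electron carrier Fdx1, which measured 72.6 ± 4.1 in runners and 88.5 ± 16.4 in non-runners (intensity, SD, n = 3). Abcc1, Hsd17b10 and Akr1c14 differed by 0.34, 0.15 and 0.19 on the log2 scale, and the other Akr1c14 probe set by -0.17.

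Of 18 other steroid and nuclear receptors tested, 8 were higher and 10 lower, with 0 higher and 2 lower at an unadjusted p under 0.05 and a median of -0.01. Without non-runner B, 7 were higher and 11 lower, with 0 higher and 3 lower at that p and a median of -0.13. Nr4a3, an orphan receptor induced early by many stimuli, measured 156.4, 143.7 and 122.2 in runners against 197.7, 184.6 and 168.1 in non-runners. The groups did not overlap, and its 2 probe sets differed by -0.38 ± 0.16 and -0.39 ± 0.26 (log2, SE; limma adjusted p = 0.611 for the first). Ppard, a fatty acid-activated receptor, differed by -0.38 ± 0.16 in its brightest probe set and by 0.62 ± 0.40 in another. Rxrb and Nr4a2 differed by 0.25 ± 0.19 and -0.26 ± 0.19.

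Of 15 tested relatives of Cebpb, Cebpd, Dusp1 and Sgk1 and other immediate early genes, 6 were higher and 9 lower, with 1 higher and 0 lower at an unadjusted p under 0.05 and a median of -0.05. Without non-runner B, 9 were higher and 6 lower, with a median of 0.05. Jund, an AP-1 subunit, measured 277.2, 206.4 and 202.7 in runners against 178.9, 56.3 and 127.1 in non-runners. Every runner array was above every non-runner array, and the difference was 1.03 ± 0.38 (log2, SE; limma adjusted p = 0.586), or 0.57 without non-runner B. Atf3, a stress-induced factor, measured 317.6, 200.7 and 195.0 in runners against 313.1, 481.6 and 238.5 in non-runners, and its difference went to -0.24 without non-runner B, against -0.52 with it. Cebpa, a C/EBP factor of fat cells, measured 34.4 to 45.7 in runners against 37.8, 6.5 and 34.3 in non-runners, and Ddit3, a C/EBP partner of the stress response, differed by -0.25 ± 0.19.

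**Figure D4:**
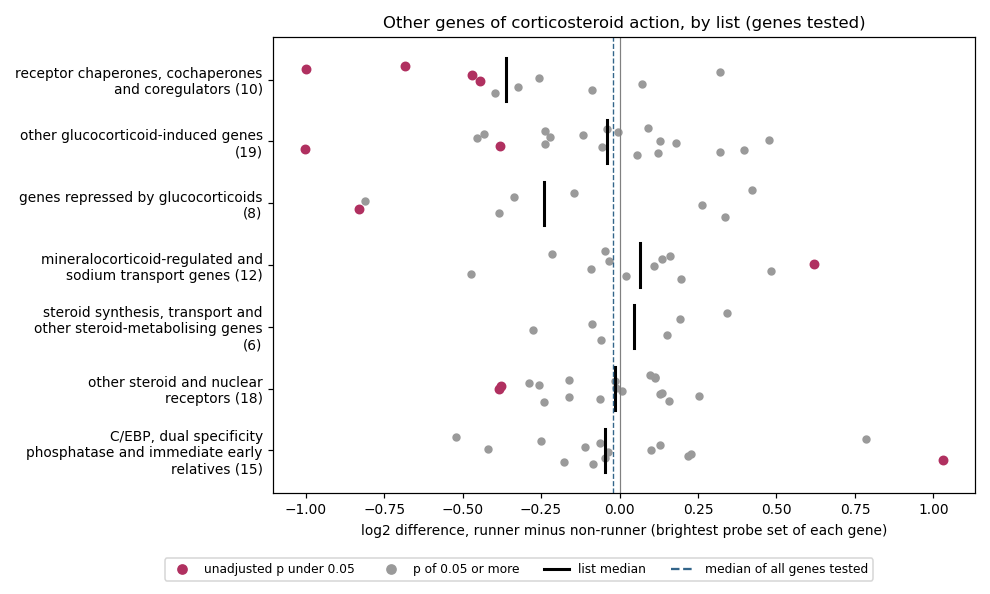
Log2 difference, runner minus non-runner, of the brightest probe set of each tested gene in 7 lists of other corticosteroid-related genes; black bars are list medians, the dashed line is the median of all genes tested, and red points have an unadjusted p under 0.05. With all arrays, the median of the chaperone and coregulator list lies at -0.36 and those of the other lists between -0.24 and 0.06. The value of -0.24, for genes that glucocorticoids repress, was -0.07 without non-runner B.

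Over the 6 arrays, the gene whose normalized level was most like that of Hsd11b1 was Gaa (Pearson r = 0.995), followed by Idh1 (0.990) and Fmod (0.990), of 3172 genes compared. For Sgk1 they were Xrcc5 (0.990), Ubac2 (0.955) and Smc1a (0.953), and for the Nr3c1 probe set rc_AA893618_s_at they were Trap1 (0.959), Lama2 (0.943) and Wdr74 (0.932). These are descriptions over 6 arrays that share non-runner B, from a search of many genes.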

How the data were processed

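The deposited values are linear intensities of each probe set on each array. The software that made them and its settings are not given in the sources used here. Array medians ran from 28.5 to 32.2. Values have no read depth, so the number of arrays limits the precision. Below the control level lay 55.4% to 57.5% of the probe sets of an array. Of 8799 probe sets, 59 were controls and 7006 carried a single symbol in the platform annotation.

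From these deposited intensities, log2(intensity + 2.4) was computed, 2.4 being the 10th percentile of positive values, and quantile normalized. Fold changes understate those of dim genes. Controls and the dimmest 40% of the other probe sets were left out, leaving 5244. Runners were compared with non-runners with limma 3.58.1 in R 4.3.3 (lmFit and eBayes). The tests were two-sided, with p-values adjusted over all 5244 by Benjamini-Hochberg and a threshold of 0.05. The fit was tested on simulated data. Values per array are deposited intensities, and differences are from the fit. "Groups do not overlap" refers to deposited intensities.

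The members, the pathway lists and the marker lists were chosen with earlier results of these data known. All members are named; of each pathway list, the 4 genes with the smallest p, and the 3 genes most correlated with the brightest probe set of Nr3c1, Hsd11b1 and Sgk1. Marker sums use the brightest probe set of each gene. The chip letters are not said to pair arrays. Deviations of same-letter arrays from their group means correlated at -0.09 (A), -0.04 (B) and -0.05 (C), so no block was used. Figures were drawn with matplotlib 3.10.9.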

Additional observations from a re-analysis of the deposited data

How the results depend on the processing

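The alternatives were pseudocounts of 1 and 16, no quantile normalization, median centring, no filter, the dimmest 60% left out, a trended robust variance model, the chip letter as a replicate block, and each array left out. A covariate for the 3'/5' ratio of beta-actin and the lists without non-runner B were chosen after seeing the data. By limma, 0 member probe sets passed in any of these, the smallest adjusted p being 0.417. Over all probe sets 0 passed with all 6 arrays, and 0 to 4 as arrays were left out (0 to 4 higher, 0 to 1 lower; 2 in all without non-runner A and 4 without non-runner C). With the replicate block 0 passed and 1 member was at an unadjusted p under 0.05; the block changed no call. That member count was 1 to 3 as arrays were left out, 3 without non-runner A, where Hsd11b1 and Cebpb S77528cds_s_at joined Cebpd M65149_at. With the covariate it was also 1, but it was Nr3c1 M14053_at.

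Of the 14 tested member probe sets, 8 kept their sign throughout. The sign of Nr3c2 M36074_at turned without quantile normalization (0.014) and with the covariate (0.095). It also turned with the covariate for Hsd11b1 (0.066), Cebpd rc_AI045030_s_at (-0.31) and Dusp1 S81478_s_at (0.12). As arrays were left out, Nr3c2 M36074_at ranged from -0.071 to 0.036, Sgk1 from -0.30 to 0.053, Cebpd rc_AA946292_at from -0.30 to 0.15, Cebpd rc_AI045030_s_at from -0.15 to 1.19 and Dusp1 S81478_s_at from -0.29 to 0.028. The cause of these turns was not tested.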
